A study of Mus musculus with 6 samples.

Results

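The plasminogen activator system was followed here in mouse macrophages through 6 chosen genes: the activators Plau and Plat, the receptors Plaur and Plgrkt, and the serpin inhibitors Serpinb2 and Serpine2. A gene was included when a row of the deposited expression table carried its mouse gene symbol in the platform annotation. This held for 5 of the 6 genes, among 25206 features in all, and Serpine2 was not analysed here. The cells were peritoneal macrophages of C57BL/6J mice drawn into the abdominal cavity by thioglycollate, taken 4 days after the injection. They came from 3 mice labelled Tet2-/- and from 3 wild-type littermates, and each culture gave 1 Affymetrix array. Both groups had been stimulated for 10 h with LPS, a bacterial ligand of toll-like receptor 4, at 10 ng/mL and with interferon gamma at 2 ng/mL, so each value describes stimulated cells. Tet2 is an enzyme that converts methylated cytosine in DNA to its oxidised forms. Which part of the gene was deleted, and whether other cells of the lavage were removed, is not given in the sources used here.

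Plasminogen is a circulating zymogen that is cut to plasmin, a broad protease that dissolves fibrin and degrades matrix proteins. Urokinase, the product of Plau, and tissue plasminogen activator, the product of Plat, make that cut. Urokinase works bound to its receptor, encoded by Plaur, while plasminogen itself docks to the cell surface through proteins such as the one encoded by Plgrkt. Serpins such as those encoded by Serpinb2 and Serpine2 trap the activators. In macrophages the system is known for its part in migration through tissue and in matrix turnover, and Serpinb2 is a classic gene induced by LPS.

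The bases upstream of a gene's start are shown for the genes that matched the RefSeq promoter table of build GRCm38.p6, to set the start of the gene that rose beside those of 2 genes that did not pass the test. Of the 5 genes, 3 matched (Serpinb2, Plaur and Plgrkt), and Plau and Plat did not. Each line holds the 250 bases before a listed start, 5′ to 3′ on the gene's strand, and capitals mark every match to a searched motif. The windows are chr1:107511173-107511422 on the plus strand for Serpinb2, chr7:24462233-24462482 on the plus strand for Plaur and chr19:29361872-29362121 on the minus strand for Plgrkt.
Serpinb2: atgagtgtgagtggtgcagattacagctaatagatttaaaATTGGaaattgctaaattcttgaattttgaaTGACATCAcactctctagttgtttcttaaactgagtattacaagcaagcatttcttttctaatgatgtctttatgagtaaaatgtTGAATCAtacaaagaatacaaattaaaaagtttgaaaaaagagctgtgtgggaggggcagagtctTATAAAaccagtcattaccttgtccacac
Plaur: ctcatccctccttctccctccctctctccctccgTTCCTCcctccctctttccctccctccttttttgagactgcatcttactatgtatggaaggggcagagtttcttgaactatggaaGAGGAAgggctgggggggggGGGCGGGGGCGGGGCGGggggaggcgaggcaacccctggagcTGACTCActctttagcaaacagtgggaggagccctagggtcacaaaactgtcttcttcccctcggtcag
Plgrkt: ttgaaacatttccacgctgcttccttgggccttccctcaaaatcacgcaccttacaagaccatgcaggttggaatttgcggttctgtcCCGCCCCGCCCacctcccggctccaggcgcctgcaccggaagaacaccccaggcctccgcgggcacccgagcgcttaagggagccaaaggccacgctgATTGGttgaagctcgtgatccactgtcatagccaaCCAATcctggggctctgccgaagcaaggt

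Motifs were searched on both strands as the TATA box TATAAA, the AP-1 motif TGANTCA, a relaxed cAMP response element TGACNTCA, the purine-rich PU.1 and Ets motif GAGGAA, the GC box GGGCGG, the CCAAT box CCAAT and the NF-kappaB motif. AP-1 and the cAMP response element share most of their letters, but no match of one overlapped a match of the other in these windows. The Serpinb2 window held a TATA box at 29 to 24 bases before the start, an AP-1 match (TGAATCA) at 94 to 88, a relaxed cAMP response element (TGACATCA) at 179 to 172 and a CCAAT box on the opposite strand. Of 32851 such windows in the table, 12.4% held a TATA box, 6.7% an AP-1 match, 7.5% the relaxed cAMP response element and 33.8% a CCAAT box. The Plaur window held an AP-1 match (TGACTCA) at 69 to 63 bases before the start, 3 GC boxes that partly overlap or adjoin each other and 2 PU.1 and Ets matches, against 32.7% of windows with a GC box and 23.3% with the PU.1 and Ets motif. The Plgrkt window held 2 GC boxes and 2 CCAAT boxes, and neither a TATA box nor an AP-1 match. None of the 3 held the NF-kappaB letters, which 3.9% of windows did. The number of CpG dinucleotides was 0 in the Serpinb2 window, 6 in that of Plaur and 15 in that of Plgrkt, where the median over all windows was 6 (quartiles 2 and 16). A second listed start of Serpinb2 lies downstream, and its window of 250 bases held 3 CpG dinucleotides and the same AP-1 and TATA box letters. These matches describe letters only, and binding was not measured.

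Values below are log2 expression from RMA, a method that corrects background, brings the arrays to a shared distribution and summarises the probes of a gene. A difference is the Tet2-deficient mean less the wild-type mean, with its standard error from a limma fit over all features (n = 3 arrays per group), and p-values are two-sided and adjusted over all 25206 features with a threshold of 0.05. The Tet2 feature did not mark the labels: it stood at 5.55, 5.25 and 5.75 in the arrays labelled Tet2-deficient and at 5.40, 5.07 and 5.10 in the wild-type ones, a difference of 0.32 ± 0.16 (limma adjusted p = 0.365). The position of its probes relative to the deletion is not given in the sources used here, so each direction below rests on the labels of the arrays. Array medians lay between 3.47 and 3.66. Across all features 240 (0.952%) passed the threshold, 163 higher and 77 lower. With arrays centred on their medians the split was 215 higher and 58 lower, and with cyclic loess between arrays it was 174 higher and 118 lower.

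Of the 5 measured genes, 1 rose (Serpinb2), 1 fell (Plau) and 3 did not pass (Plaur, Plat and Plgrkt). For the background, 0.647% of features rose and 0.305% fell. The 2 groups of arrays did not overlap for 4 of the 5 genes, 2 higher and 2 lower. Of all features, 22.0% had such groups, 9.74% higher and 12.2% lower. An unadjusted p under 0.05 was found for 16.0%. The median difference over all features was -0.04, and the median absolute difference was 0.15. The genes were chosen with earlier results of these data known, so their counts are descriptions.

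**Figure D1:**
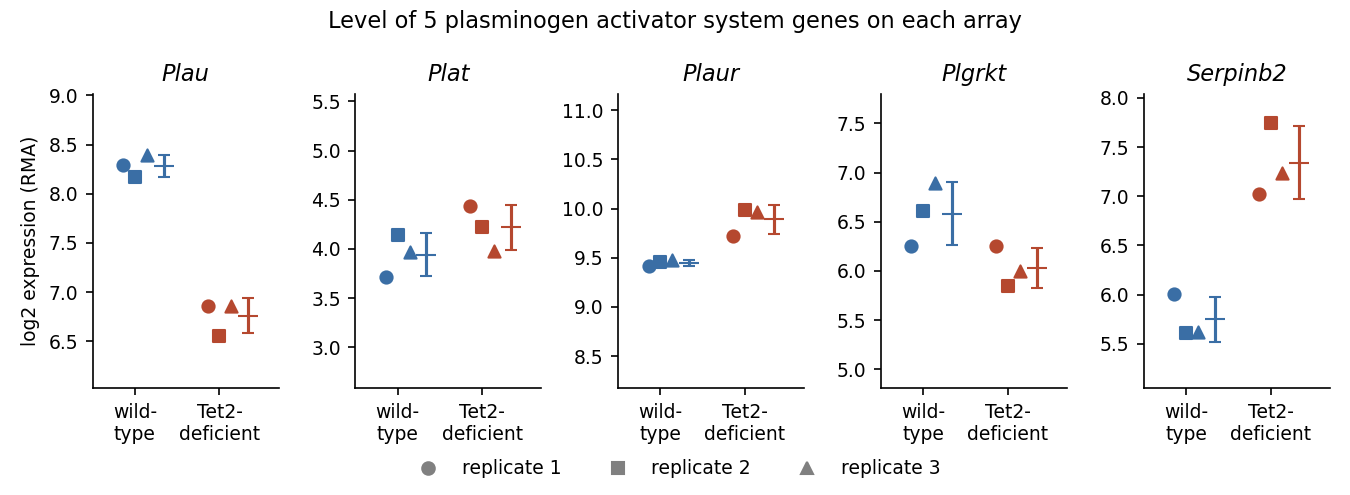
Log2 expression (y axis, RMA values; each panel spans the same range) of 5 genes on the 3 wild-type arrays (blue) and the 3 arrays labelled Tet2-deficient (red). Marker shapes give the replicate number of the labels, and the bars beside the points give the mean ± SD (n = 3). Plau is lower and Serpinb2 higher on each array labelled Tet2-deficient, whereas the groups overlap for Plat.

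Among the activators, Plau, which encodes urokinase, was at log2 levels of 8.29, 8.17 and 8.39 in wild-type replicates 1, 2 and 3 and at 6.86, 6.55 and 6.86 in Tet2-deficient replicates 1, 2 and 3. Each array labelled Tet2-deficient was thus below each wild-type array, with a gap of 1.31 between the nearest values of the groups. The group means were 8.28 ± 0.11 (SD, n = 3) in wild-type and 6.76 ± 0.18 (SD, n = 3) in Tet2-deficient cells. Plau fell by 1.52 on the log2 scale (SE 0.13, 95% confidence interval -1.83 to -1.22, limma adjusted p = 0.00281), so that the wild-type level was 2.88-fold the Tet2-deficient one. It ranked 8 by p among all features. The difference stayed between -1.58 and -1.42 when any 1 array was left out, with adjusted p-values of 0.00792 to 0.025.

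Plat, which encodes the other activator, was at 3.71, 4.14 and 3.97 in wild-type replicates 1 to 3 and at 4.44, 4.22 and 3.98 in Tet2-deficient replicates 1 to 3. The groups overlapped, since Tet2-deficient replicate 3 lay between wild-type replicates 2 and 3. All 6 values lay above the array medians, the lowest of them only just, and RMA values near the floor understate folds. The difference of 0.27 ± 0.16 did not pass (95% confidence interval -0.09 to 0.64, limma adjusted p = 0.457). The interval holds no fall of the size seen for Plau.

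Of the surface receptors, Plaur, the glycolipid-anchored receptor that holds urokinase at the cell surface, was at 9.42, 9.46 and 9.48 in the wild-type arrays. In the arrays labelled Tet2-deficient it was at 9.72, 9.99 and 9.96. The wild-type arrays were close together (SD 0.03) and the groups were separated by a gap of 0.24. The difference of 0.44 ± 0.12, or 1.35-fold higher in Tet2-deficient arrays, did not pass over all features (95% confidence interval 0.16 to 0.71, limma adjusted p = 0.12). It passed under a trended and robust variance prior (adjusted p = 0.0292) and under no other of the 13 alternative fits.

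Plgrkt encodes a plasminogen receptor with a C-terminal lysine that spans the membrane. Its levels were 6.25, 6.61 and 6.89 in the wild-type arrays and 6.25, 5.85 and 6.00 in the arrays labelled Tet2-deficient. The groups barely failed to overlap: the lowest wild-type array and the highest Tet2-deficient array, both replicate 1, agreed to 2 decimals. The difference was -0.55 ± 0.18 (95% confidence interval -0.95 to -0.15, limma adjusted p = 0.176) and did not pass. It ran from -0.72 without wild-type replicate 1 to -0.40 without wild-type replicate 3.

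Serpinb2 encodes plasminogen activator inhibitor 2, a serpin that remains largely inside the cell. It was at 6.01, 5.61 and 5.62 in wild-type replicates 1 to 3 and at 7.02, 7.74 and 7.24 in Tet2-deficient replicates 1 to 3. The lowest Tet2-deficient array was 1.01 above the highest wild-type array, and Tet2-deficient replicate 2 was the highest of the 6. Group means were 5.75 ± 0.23 (SD, n = 3) and 7.34 ± 0.37 (SD, n = 3). Serpinb2 rose by 1.59 ± 0.20 (95% confidence interval 1.15 to 2.03), a 3.00-fold difference with a limma adjusted p = 0.0128. Without Tet2-deficient replicate 3 the difference was 1.63 (adjusted p = 0.0668) and without wild-type replicate 3 it was 1.52 (adjusted p = 0.0644), so the call was lost in both fits while the size was kept. Without Tet2-deficient replicate 2, the highest array, it was 1.39 (adjusted p = 0.0333).

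**Figure D2:**
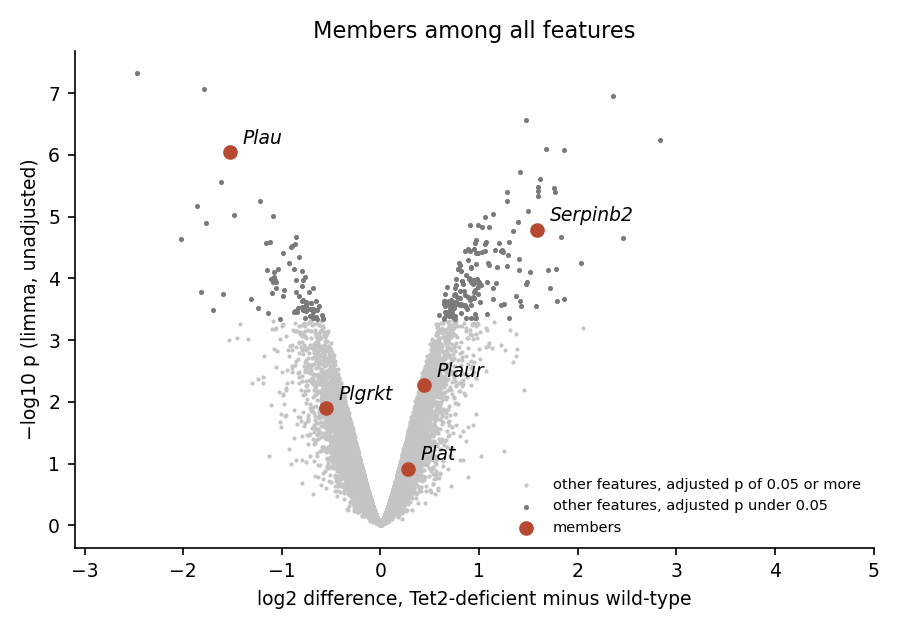
Log2 difference (x axis, Tet2-deficient minus wild-type) against −log10 of the unadjusted limma p (y axis) for all 25206 features, with the 5 genes in red and features past an adjusted p of 0.05 in dark grey. Plau (-1.52) and Serpinb2 (1.59) lie among the features past the threshold, whereas Plaur, Plgrkt and Plat lie among the rest.

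Plau and Serpinb2 kept their direction in each of the 13 alternative fits, and so did Plaur, Plat and Plgrkt. Under the 7 fits that used all arrays, the difference of Plau lay between -1.59 and -1.46 and that of Serpinb2 between 1.53 and 1.65, and both passed in each. Those of Plaur lay between 0.40 and 0.50, those of Plgrkt between -0.61 and -0.49 and those of Plat between 0.21 and 0.34.

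**Figure D3:**
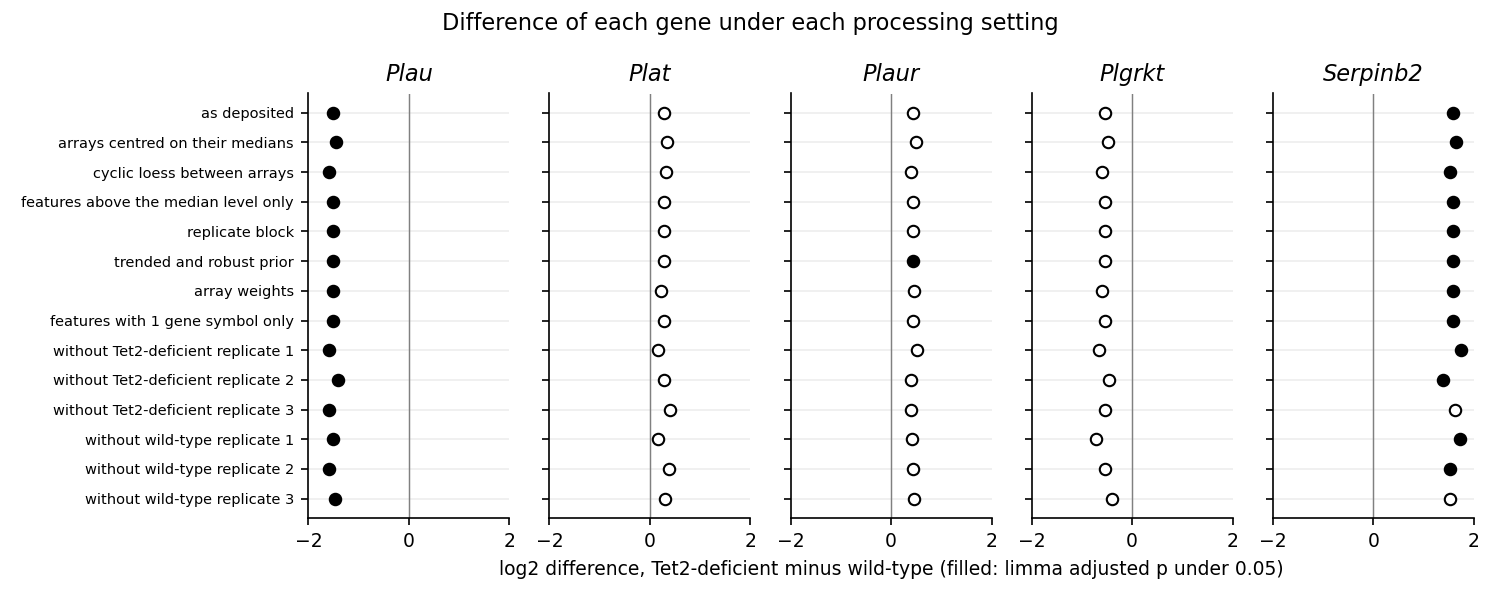
Log2 difference (x axis, Tet2-deficient minus wild-type) of each gene under each processing setting (rows). Filled points passed a limma adjusted p of 0.05. Plau is filled in each row, Serpinb2 in all but the fits without Tet2-deficient replicate 3 or wild-type replicate 3, and Plaur only with a trended and robust prior.

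Genes of related role were taken from lists chosen, like the 5 genes, with earlier results of these data known. Their counts are therefore descriptions, to be read beside the 0.647% of all features that rose and the 0.305% that fell. Some genes stand in more than 1 list and are counted in each. In the list of plasminogen with its other activators and inhibitors, 0 of 12 measured genes passed with limma, and 1 had an unadjusted p under 0.05. That gene was Serping1, the inhibitor of the complement and contact proteases (0.76 ± 0.26, adjusted p = 0.192). Its levels were 4.61, 4.36 and 3.87 in wild-type and 4.76, 5.61 and 4.75 in Tet2-deficient arrays, so the groups did not overlap, and Tet2-deficient replicate 2 stood highest. Plg, the gene of plasminogen itself, lay at the array medians with 3.57, 3.74 and 3.52 in wild-type and 3.57, 3.61 and 3.55 in Tet2-deficient arrays (-0.04 ± 0.12, adjusted p = 0.918; named after its values were seen). The membrane proteases St14 (-0.15 ± 0.11, adjusted p = 0.573) and Hpn (-0.17 ± 0.14, adjusted p = 0.596) and coagulation factor F11 (0.21 ± 0.18, adjusted p = 0.621) had the next smallest p. The median difference of the list was 0.01. Of its 12 genes, 7 lay below the array median on all arrays, F11 among them, where a difference is hard to measure.

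Among proteins that dock plasminogen at the surface, 0 of 4 passed with limma and 1 had an unadjusted p under 0.05. This was Anxa2, annexin A2, which forms a plasminogen-binding complex with the product of S100a10. Anxa2 was at 9.81, 9.76 and 9.91 in wild-type arrays and at 9.36, 9.36 and 9.33 in those labelled Tet2-deficient, with no overlap and little spread in either group. The difference was -0.48 ± 0.11 (adjusted p = 0.0783), and it passed with features above the median level only (adjusted p = 0.0328) and with a trended and robust prior (0.0113). S100a10 had -0.14 ± 0.13 (adjusted p = 0.648), and the keratins Krt8 (-0.17 ± 0.16, adjusted p = 0.665) and Krt18 (0.11 ± 0.16, adjusted p = 0.794) also overlapped between the groups. The direction of Krt18 turned to -0.05 without Tet2-deficient replicate 2.

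Receptors that work with the urokinase receptor or clear activators from the surface had a median difference of 0.13. A rise passed for 3 of the 20 measured and a fall for 0, which left 17. An unadjusted p under 0.05 was found for 8 (16.0% of all features), and the groups did not overlap for 11 (22.0% of all features). The genes that rose were Fpr2, a formyl peptide receptor (1.03 ± 0.13, adjusted p = 0.0121), Itgam, the alpha chain of the integrin Mac-1 (0.97 ± 0.14, adjusted p = 0.0211), and Itgav, the alpha v integrin chain (0.79 ± 0.12, adjusted p = 0.0219). Fpr2 was at 9.03, 8.84 and 8.69 in wild-type arrays and at 9.89, 9.92 and 9.84 in those labelled Tet2-deficient, and the other two were likewise separated. Fpr2 lost its call without Tet2-deficient replicate 1 (adjusted p = 0.0576), Tet2-deficient replicate 3 (0.0668) or wild-type replicate 3 (0.0586). Itgam lost its call without any 1 array but wild-type replicate 1, with adjusted p-values of 0.0542 to 0.0941 in those 5 fits, and Itgav lost it without any 1 of the 6 (0.0518 to 0.111). The beta integrin chains of the list did not pass with limma. They were Itgb1 (0.13, adjusted p = 0.613), Itgb2 (0.12, 0.648), Itgb3 (-0.10, 0.789) and Itgb5 (-0.28, 0.291). Mrc1, the mannose receptor, which takes up tissue plasminogen activator, had -0.70 ± 0.15 (adjusted p = 0.0701). It was at 5.90, 5.70 and 6.10 in wild-type arrays and 5.24, 4.98 and 5.40 in those labelled Tet2-deficient, without overlap. Its fall passed with the replicate block (adjusted p = 0.0480), with features above the median level only (0.0316) and with a trended and robust prior (0.0353).

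Targets of plasmin and of its activators had a median difference of 0.15. A rise passed for 4 of the 20 measured and a fall for 0, which left 16. An unadjusted p under 0.05 was found for 5 (16.0% of all features), and the groups did not overlap for 7 (22.0% of all features). Those that rose were thrombospondin 1, Thbs1 (1.40 ± 0.17, adjusted p = 0.0119), the collagenase Mmp13 (1.03 ± 0.14, adjusted p = 0.0162), fibronectin, Fn1 (1.78 ± 0.26, adjusted p = 0.0219), and the angiogenic factor Vegfa (0.99 ± 0.17, adjusted p = 0.0330). Thbs1 lost its call without Tet2-deficient replicate 1 (adjusted p = 0.0540) or replicate 3 (0.0669). Mmp13 lost it without Tet2-deficient replicate 1 (0.0539), Tet2-deficient replicate 3 (0.0806) or wild-type replicate 3 (0.0689). Fn1 lost it without any 1 array but wild-type replicate 1 (0.0581 to 0.101 in those 5 fits), and Vegfa without any 1 of the 6 (0.0561 to 0.12).

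**Figure D4:**
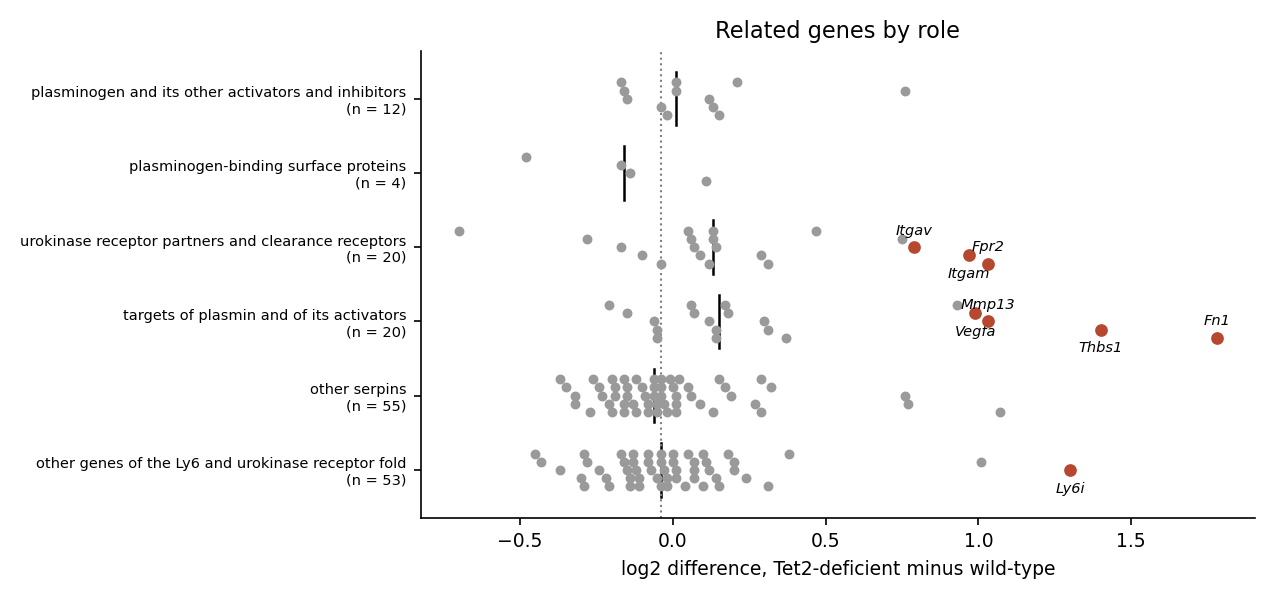
Log2 difference (x axis, Tet2-deficient minus wild-type) of each measured gene in 6 lists of related role (y axis; points are spread vertically within a list for legibility). Black bars give list medians, the dotted line the median of all features (-0.04), and red points passed a limma adjusted p of 0.05, namely 3 of the urokinase receptor partners, 4 of the targets and Ly6i.

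Among the 55 other serpins measured, 0 passed with limma and 7 had an unadjusted p under 0.05, where 16.0% of all features did. The 55 include Serping1, Serpina5, Serpini1, Serpinf2 and Serpinc1, counted above with plasminogen, and Serping1 is among the 7. The median difference of the 55 was -0.06, with a range of -0.37 to 1.07. Of the 55, 43 lay below the array median on all arrays, Serpine3 among them, where a difference is hard to measure. Serpinb9b, a relative of the granzyme inhibitors, was nearest to the threshold (1.07 ± 0.24, adjusted p = 0.0701). Its levels of 6.07, 5.56 and 5.07 in wild-type arrays lay below those of 6.69, 6.38 and 6.84 in arrays labelled Tet2-deficient. It passed with features above the median level only (adjusted p = 0.0331), with a trended and robust prior (0.0319), with array weights (0.0421) and without wild-type replicate 1 (0.0310). The neutrophil protease inhibitor Serpinb1a (0.77 ± 0.28, adjusted p = 0.227) and Serpine3, of the same clade as Serpine2 (-0.37 ± 0.12, adjusted p = 0.185), did not pass. Many serpins have close copies, and how shared probes were assigned is not given in the sources used here.

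Of 53 other genes with the three-finger fold of Ly6 proteins and the urokinase receptor, 1 rose, 0 fell and 52 did not pass, and the median difference was -0.04. Of the 53, 37 lay below the array median on all arrays, Pate4 among them, where a difference is hard to measure. Ly6i was at 7.52, 6.99 and 6.93 in wild-type arrays and at 8.61, 8.48 and 8.23 in those labelled Tet2-deficient (1.30 ± 0.18, adjusted p = 0.0167), and it lost its call without any 1 array but wild-type replicate 1 (0.0522 to 0.0864 in those 5 fits). The monocyte antigen gene Ly6c2, which stood highest in Tet2-deficient replicate 1, had 1.01 ± 0.20 (adjusted p = 0.0558) and passed under 6 of the 13 alternative fits, among them the trended and robust prior (adjusted p = 0.0209). Pate4 (-0.45 ± 0.11, adjusted p = 0.0999) and Ly6g6e (-0.43 ± 0.16, adjusted p = 0.242) were lower without passing. Ly6 genes also have close copies.

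The genes next to each of the 5 on the chromosome were read from the RefSeq gene order, with the 2 nearest measured genes on each side. Of these 20 neighbours 0 passed with limma, 0 passed with a trended and robust prior, and 3 had an unadjusted p under 0.05. Of all features, 16.0% had such a p. The groups overlapped for 17 of the neighbours and not for 3, where 22.0% of all features had groups that did not overlap. Serpinb2 on chromosome 1 lies among other clade B serpins, of which 0 passed. Serpinb7 had -0.19 ± 0.18, Serpinb10 had -0.08 ± 0.14 and Serpinb11 had -0.12 ± 0.12, with adjusted p-values of 0.670, 0.838 and 0.684. Their levels of 1.01 to 2.40 on any array lay below the array medians, where a difference is hard to measure. Serpinb8 was at 4.76, 4.65 and 4.83 in wild-type arrays and at 4.96, 4.95 and 5.19 in those labelled Tet2-deficient, without overlap (0.29 ± 0.12, unadjusted p = 0.0449, adjusted p = 0.300). Beside Plau on chromosome 14, the differences were -0.06 ± 0.14 for Ndst2, a heparan sulfate sulfotransferase, and -0.06 ± 0.19 for the kinase gene Camk2g, both 0.00 with arrays centred on their medians. On the other side they were 0.36 ± 0.15 for vinculin, Vcl, and 0.33 ± 0.16 for the adaptor subunit Ap3m1. Insl6, a relaxin family gene near Plgrkt on chromosome 19, had the largest difference of the neighbours at -0.77 ± 0.23 (adjusted p = 0.142), whereas Rln1 between them had 0.10 ± 0.17. On the far side of Plgrkt, the checkpoint ligand genes Cd274 and Pdcd1lg2 had 0.18 ± 0.13 and -0.21 ± 0.16. Next to Plaur, the differences of Smg9, Irgc1, Cadm4 and Zfp428 were 0.19, 0.21, 0.14 and -0.07, and next to Plat, those of A930013F10Rik, Ikbkb, Ap3m2 and Kat6a were -0.18, 0.15, 0.03 and 0.36. The sign for Ap3m2 turned with cyclic loess between arrays (-0.02).

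Features whose pattern over the 6 arrays was most like that of each gene were sought by Pearson correlation among 19703 named features, leaving out predicted genes and small RNAs. With 6 arrays in 2 groups, a high coefficient follows from a shared difference between groups as well as from shared variation within them. Plau was most like Scgb1a1, a secretoglobin of airway club cells (r = 0.997, difference -2.47 ± 0.16, adjusted p = 9.20e-04), followed by the calcium-binding S100a1 (r = 0.997, -0.66 ± 0.11, adjusted p = 0.0361, lost without any 1 of the 6 arrays at 0.0714 to 0.157) and the mRNA export gene Thoc7 (r = 0.996, -0.37 ± 0.11, adjusted p = 0.149). Serpinb2 was most like Tmem63a, an ion channel gene (r = 0.993, 0.64 ± 0.12, adjusted p = 0.0481, lost without any 1 of the 6 arrays at 0.0735 to 0.184), the lectin receptor Clec4d (r = 0.993, 0.46 ± 0.12) and the carnitine acetyltransferase Crat (r = 0.991, 0.41 ± 0.12). Plaur was most like the glycogen phosphorylase Pygl (r = 0.994, 0.38 ± 0.11), the cytokine oncostatin M, Osm (r = 0.990, 1.23 ± 0.17, adjusted p = 0.0162), and the syntrophin Sntb2 (r = 0.987, 0.45 ± 0.12). Osm lost its call without Tet2-deficient replicate 3 (adjusted p = 0.0846) or wild-type replicate 3 (0.0736). The features nearest to Plgrkt were Cd48, Plekhf2 and Selenom (r = 0.991, 0.988 and 0.988), and those nearest to Plat were Sec11a, Tmem230 and Slc7a6 (r = 0.991, 0.988 and 0.984). Of the 6 features nearest to Plau and Serpinb2, Scgb1a1 had a larger difference than the gene itself and the other 5 a smaller one.

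Cell identity was checked with marker lists. All 9 measured markers of macrophages in general were above the array median on each array, among them Adgre1 and Cd68 in both groups, as the label of the cells requires. Of these, Cd14 (0.97, adjusted p = 0.0152) and Itgam (0.97, adjusted p = 0.0211) rose, 0 fell and 7 did not pass, with a median difference of 0.00, and 6 of the 9 had an unadjusted p under 0.05. Aif1 (-0.76, adjusted p = 0.114) and Tyrobp (-0.42, adjusted p = 0.124) were lower without overlap and without passing. The summed signal of the 9 on the linear scale was 7473 to 7729 in wild-type arrays and 8848 to 9206 in those labelled Tet2-deficient. That sum includes Cd14 and Itgam, and the other 7 were not summed alone. Of those 7, Csf1r (0.58) and Adgre1 (0.15) were higher, Cd68 was at 0.00, and Fcgr1 (-0.51), Aif1, Tyrobp and Mertk (-0.10) were lower. The higher sum therefore does not describe the list as a whole. Markers of resident peritoneal macrophages were higher in arrays labelled Tet2-deficient, with a median difference of 0.84. Of the 14, 4 were past the threshold (Prg4, F5, Timd4 and Fn1). Fn1 is also counted above among the targets of plasmin, and Itgam among the receptor partners, so these are not separate observations. The summed signal of the 14, Fn1 included, was 6459 to 7270 in wild-type arrays and 7900 to 10067 in those labelled Tet2-deficient. Tet2-deficient replicate 2, the highest for Serpinb2, also had the highest sum. The acute-phase gene Saa3 made up 47.8% to 79.9% of that sum on an array and was itself lower in the arrays labelled Tet2-deficient (-0.19, adjusted p = 0.455). The other 13 summed to 1300 to 2007 in wild-type arrays and to 3308 to 5254 in those labelled Tet2-deficient, again highest in replicate 2. Gata6, the transcription factor that defines these cells, had 0.23 (adjusted p = 0.657). It was at 3.66, 3.51 and 3.79 in wild-type and at 3.59, 4.42 and 3.63 in Tet2-deficient arrays. These values were near the array medians but for Tet2-deficient replicate 2, which was again the highest. In these bulk samples fewer cells of a type and less RNA per cell cannot be told apart, and the part of cell composition in the changes of Serpinb2 and Plau was not tested.

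For the other cell types 0 markers passed in limma, and 1 each of the markers of monocytes, mesothelium, fibroblasts, endothelium and T cells had an unadjusted p under 0.05. That of fibroblasts was Dcn, higher in Tet2-deficient arrays without overlap (1.26 ± 0.28, limma adjusted p = 0.0715). The fibroblast list had a median difference of 0.47, with 5 markers higher and 3 lower. Fibroblast markers, 8 in number, summed to 144, 202 and 138 in wild-type replicates 1 to 3 and to 221, 480 and 162 in Tet2-deficient replicates 1 to 3. Replicate 2 was again the highest, and the difference of Serpinb2 without it is given above. Mesothelial markers summed to 94 to 116 in wild-type and 89 to 106 in Tet2-deficient arrays, and neutrophil markers to 250 to 338 and 294 to 552. S100a8 (0.53 ± 0.28, limma adjusted p = 0.397) made up most of the neutrophil sum on each array. The median difference of the 12 neutrophil markers was -0.05. Monocyte markers summed to 241 to 297 and 322 to 491, but Ly6c2 made up 35.7% to 60.6% of that sum on an array. The other 6 summed to 145 to 191 in wild-type and 140 to 195 in Tet2-deficient arrays, which overlap. Of the 7 monocyte markers 4 were lower, and their median difference was -0.01. Markers of B cells, T cells, mast cells, eosinophils and dendritic cells summed to between 43 and 129 on any array, and endothelial ones to between 116 and 154. No marker is at 0 on this scale, the lowest log2 value in the table being 0.345.

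**Figure D5:**
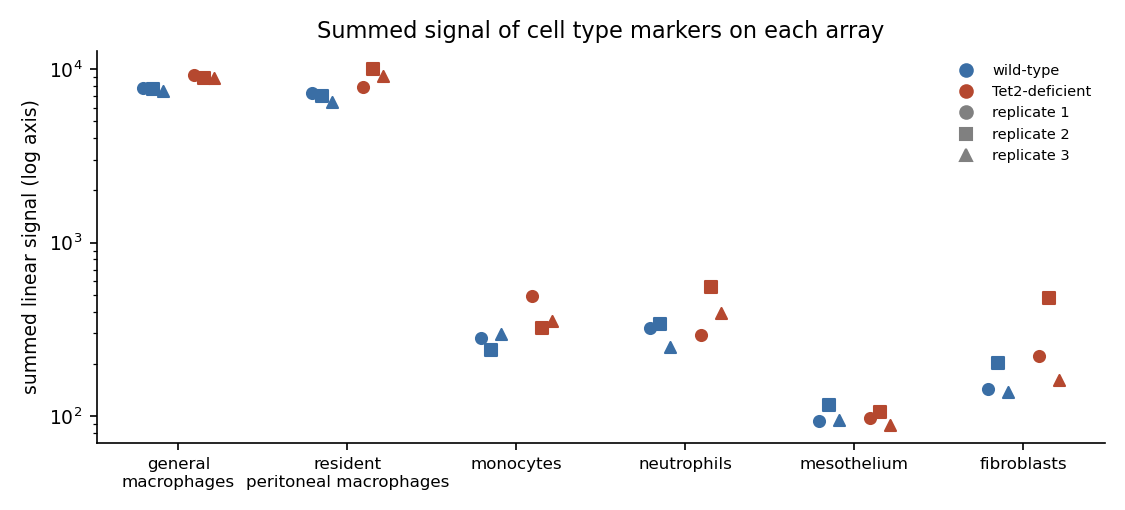
Summed linear signal (y axis, log scale; 2 to the power of the RMA value, summed over the markers) of 6 marker lists on each array, wild-type in blue and Tet2-deficient in red, with marker shapes giving the replicate number. Resident peritoneal macrophage markers are higher on each array labelled Tet2-deficient (7900 to 10067) than on the wild-type arrays (6459 to 7270), also without Saa3 (3308 to 5254 against 1300 to 2007, not drawn), and fibroblast markers are highest in Tet2-deficient replicate 2 (480).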

How the data were processed

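Expression is on the log2 scale, as the authors deposited it after RMA with affy 1.36.1, per the submitters' processing notes; array type, probe sets and build are not stated there. Values ran from 0.345 to 12.7. Sorted values differed across arrays by 0.27 or less, and no further normalization was applied. In any pair of arrays at least 99.7% of features differed. Of 25206 features 23185 had 1 gene symbol, each matched by gene ID to the RefSeq table of GRCm38.p6, and 2021 had none.

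Groups came from the sample titles, which call the samples biological replicates. All features were fitted with limma 3.58.1 in R 4.3.3 (lmFit and eBayes, prior of 5.31 degrees of freedom, Benjamini-Hochberg adjustment), and the script was tested on simulated data. An exact permutation test of 3 arrays against 3 cannot go below 0.1, so none was used. The 6 arrays limit the precision.

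The genes and lists were chosen with earlier results of these data known. Named were the 5 genes and Tet2, and up to 4 genes with the smallest p in each list of related role. Also named were 2 neighbours on each side and the 3 features most like each gene. Marker genes, Plg and the beta integrin chains were named after their values were seen. Alternatives were centring, cyclic loess, bright features only, a replicate block, a trended and robust prior, array weights, features with 1 symbol, a threshold of 0.1 and each array left out; marker sums without Saa3 or Ly6c2 were added after seeing the data. Same-numbered samples had deviations from group means correlated at 0.0838, 0.1907 and 0.0248, so the numbers were not taken as pairs.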

Additional observations from a re-analysis of the deposited data

How the results depend on the processing

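The count of all features past the threshold was 240 as deposited, 846 with features above the median level only, 814 with a trended and robust prior, 498 with array weights and 791 at an adjusted p of 0.1, and 11 to 155 with 1 array left out. Of the 5 genes, 1 to 2 passed with 1 array left out: Plau in all 6 of these fits (-1.58 to -1.42) and Serpinb2 in 4 (1.39 to 1.74). Plaur passed with a trended and robust prior (0.44, adjusted p = 0.0292). The cause of these differences was not tested.

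Among the urokinase receptor partners and clearance receptors 6 passed with features above the median level only, with a trended and robust prior or at an adjusted p of 0.1, and 0 to 3 with 1 array left out. Of the targets of plasmin and of its activators 0 to 3 passed with 1 array left out. For the plasminogen-binding surface proteins 1 passed under the same 3 settings. Of the other serpins 1 passed under these settings and with array weights, and 0 to 1 with 1 array left out. For the other genes of the Ly6 and urokinase receptor fold 2 passed with cyclic loess, features above the median level only, the replicate block, a trended and robust prior or array weights, 3 at an adjusted p of 0.1, and 0 to 1 with 1 array left out.

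With the replicate block, Plau had -1.52 (adjusted p = 0.0123) and Serpinb2 1.59 (adjusted p = 0.0286), and of the 5 genes none changed its call. Of the other named genes, Mrc1 (-0.70, adjusted p = 0.0480) and Ly6c2 (1.01, 0.0286) gained the call with the block, and S100a1 (-0.66, 0.0576) and Tmem63a (0.64, 0.0697) lost it. The count for receptor partners and clearance receptors was 4 with the block, 1 of them lower. Samples numbered 1 and 2 correlated best with their own number and those numbered 3 did not, a partial hint from the data and not from the design.

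Small differences of neighbours and of Krt18 changed sign. With arrays centred on their medians Ndst2 and Camk2g were at 0.00, and with cyclic loess Ap3m2 was at -0.02. With 1 array left out the ranges were -0.05 to 0.25 for Krt18, -0.20 to 0.01 for Ndst2, -0.25 to 0.13 for Camk2g, -0.07 to 0.25 for Cadm4, -0.17 to 0.02 for Zfp428, -0.06 to 0.10 for Ap3m2, -0.36 to 0.01 for Serpinb7, -0.18 to 0.03 for Serpinb10 and -0.05 to 0.29 for Rln1. Of 756 refits of the 59 named genes other than the 5, 671 kept direction and side of the threshold, 53 lost the threshold, 17 gained it and 15 changed sign.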
